A study of Mus musculus with 4 samples.

Results

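The microglia of clusters 02 and 08 in the authors' clustering were compared between Trem2 knockout and wild-type mice on cuprizone, each cluster taken separately. The cells were chosen by their library and by the cluster number in the authors' deposited annotation. Cluster 02 held 146 wild-type and 213 knockout cells, and cluster 08 held 76 wild-type and 175 knockout cells, together 610 of the 3023 cells of the series. The comparison separates differences between genotypes inside a cluster from the near absence of cluster 04, which held 122 wild-type cells and 13 knockout cells.

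The study profiled CD11b+ CD45low microglia sorted from the brains of male mice aged 12 to 14 months with the 10x Genomics 3′ single-cell kit. There were 4 libraries: Trem2 +/+ on control diet, Trem2 +/+ on cuprizone, Trem2 +/- on cuprizone and Trem2 -/- on cuprizone, each after 12 weeks on its diet, with cuprizone at 0.2% of the food. Each library pooled sorted cells from the hemibrains of 2 animals, so every group is 1 library and no difference below has a replicate check or a p-value. The sources used here do not say which part of Trem2 was deleted. Levels of the 4 libraries are listed below in that order: control diet, wild type, heterozygote and knockout. "Wild type" without a diet means the wild-type library on cuprizone.

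TREM2 is a lipid-sensing receptor on the surface of microglia, the resident macrophages of the brain, and it signals through the adaptor TYROBP. Cuprizone kills oligodendrocytes, and microglia then take up the myelin debris, which is rich in cholesterol. In demyelination and in other brain disease, microglia turn on a programme of lipid, lysosomal and immune genes often named disease-associated microglia (DAM), with an early stage described as independent of TREM2 and a later stage described as dependent on it.

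The unit throughout is CPM, the UMIs (unique molecular identifiers, which mark captured transcripts) of a gene for each 1e+06 UMIs of all cells of that cluster in that library. Genes are of different lengths but were counted at their 3′ ends. Ratios are knockout over wild type, and ranges in parentheses are exact 95% intervals that cover counting error only. A gene was called when it had at least 50 UMIs over both libraries, differed at least 2-fold and had an interval that excluded 1. The intervals were not corrected for the number of genes. List members were also counted at 1.5-fold. The authors had grouped cells by their expression, so a difference inside a cluster is one between cells that had already been placed together by their transcripts. Of the called genes in cluster 02, 40 of the 69 lower and 16 of the 33 higher ones belonged to the genes used in that clustering; in cluster 08 these were 21 of 31 and 23 of 55. Of all genes with at least 50 UMIs, 39.5% belonged to that set in cluster 02 and 43.1% in cluster 08.

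Cells of the 2 clusters differed in depth. In cluster 02 the median was 18452.5 UMIs per wild-type cell and 14872 per knockout cell, and in cluster 08 it was 5857 and 6285. Summed over cells, the comparison rested on 2729579 wild-type and 3500626 knockout UMIs in cluster 02, and on 455283 and 1268844 UMIs in cluster 08. All 13 microglia markers, among them P2ry12 and Tmem119, had at least 50 UMIs in both clusters, and Fcrls was the 1 of them that passed 1.5-fold, upward, in each. P2ry12, a purinergic receptor of surveying microglia, stood at 2224, 1902, 1853 and 2337 CPM in cluster 02 and at 2449, 2087, 1939 and 2234 CPM in cluster 08. No barcode was shared by the 2 libraries among these cells, and 3 of the 610 cells had a barcode that also occurred in another library.

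**Figure D1:**
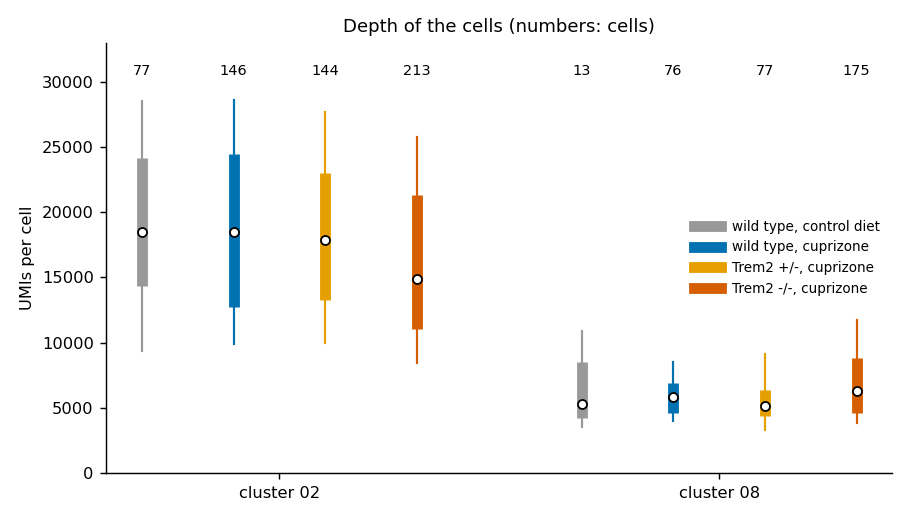
UMIs per cell (vertical axis) in clusters 02 and 08, by library; thick bars span the 25th to 75th percentile, thin bars the 10th to 90th, circles mark the median and the numbers on top count cells. Cells of cluster 02 were deeper than those of cluster 08 in each library, and within cluster 02 the knockout median, 14872, was the lowest of the 4.

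Trem2 itself (GRCm38 chromosome 17, 48346401 to 48354147, plus strand) followed the labels in both clusters. In cluster 02 it stood at 2937, 2819.8, 1692 and 509.9 CPM, and in cluster 08 at 3178, 2897, 1763 and 656 CPM. The knockout was 5.53-fold lower (5.25 to 5.83) in cluster 02 and 4.42-fold lower (4.05 to 4.82) in cluster 08, with the heterozygote between the other cuprizone libraries. A residual knockout signal remained: 98.4% of cluster 02 knockout cells and 91.1% of cluster 08 knockout cells held a Trem2 UMI after every cell was thinned to 8918 and 3859 UMIs, the depths used for clusters 02 and 08 respectively. Unthinned, those shares were 99.1% and 93.7%. In the knockout cells of cluster 03, the cluster with the highest level of the choroid plexus transcript Ttr, 22.2% of 18 cells held one unthinned, at a median of 4415 UMIs. Where the 3′ reads lie relative to the deleted part was not tested. Among the other members of the TREM2 signalling list, none passed 1.5-fold in either cluster: of 13 members with at least 50 UMIs in cluster 02 and 11 in cluster 08, Trem2 was the one called. Tyrobp, its adaptor, was at 4645 CPM in the wild type and 4691 CPM in the knockout in cluster 02, a ratio of 1.01 (0.987 to 1.03), and at a ratio of 1.07 (1.02 to 1.12) in cluster 08.

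At 2-fold, more genes were lower than higher in cluster 02 and more were higher than lower in cluster 08; in cluster 08 that order was the opposite at 1.5-fold, with no filter (192 lower, 119 higher) and with at least 200 UMIs (9 lower, 2 higher). In cluster 02, 69 of 7766 genes with enough UMIs were at least 2-fold lower in the knockout (0.888%) and 33 were at least 2-fold higher (0.425%). In cluster 08, 31 of 3634 genes were at least 2-fold lower (0.853%) and 55 were at least 2-fold higher (1.51%). Scaling by TMM, which rescales the libraries by a trimmed mean of the gene ratios, gave 20 lower and 69 higher in cluster 08. By that scaling 77.5% of the called genes were higher instead of 64.0%. After all cells of a cluster were thinned to the same number of UMIs, cluster 02 had 44 lower and 25 higher genes. Cluster 08 then had 21 lower and 33 higher genes. At 1.5-fold the shares in cluster 02 were 3.18% lower (247 genes) and 1.94% higher (151). In cluster 08 they were 4.32% lower (157) and 3.08% higher (112). The list counts below are to be read against these shares of all genes. The median log2 ratio over all genes was -0.0003 in cluster 02 and -0.014 in cluster 08. TMM moved that median up by 0.020 and 0.066, to 0.0193 and 0.0526, farther from no difference in both clusters.

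Inside cluster 02, Spp1, Lpl, Itgax and Axl, genes of the late DAM programme, were several-fold lower in the knockout than in wild-type cells of the same cluster. Of 13 members of the TREM2-dependent DAM list with at least 50 UMIs, 5 were at least 1.5-fold lower (Lpl, Axl, Itgax, Spp1 and Csf1) and none was higher, against 3.18% and 1.94% of all genes. The list's median log2 ratio was -0.43, and that of all genes was -0.0003. Its summed level was not lower, at 5378 CPM in the wild type and 5856 CPM in the knockout, a ratio of 1.09 (1.07 to 1.11). Spp1 (chromosome 5, 104435118 to 104441050, plus strand), which encodes the secreted matrix protein osteopontin, stood at 293, 289, 302 and 25.1 CPM. The knockout was the single low library, 11.5-fold lower (9.22 to 14.5). Lpl (chromosome 8, 68880491 to 68907448, plus strand), the lipoprotein lipase that frees fatty acids from triglyceride, stood at 35, 192, 197 and 26.3 CPM and was 7.29-fold lower (5.83 to 9.2); here the control-diet library was low as well. Itgax, the integrin alpha chain CD11c, stood at 4.12, 35.2, 47.3 and 3.14 CPM on few UMIs (96 wild type, 11 knockout) and was 11.2-fold lower (5.98 to 23.2). Axl, a receptor of the TAM family that binds phosphatidylserine on dying cells through Gas6, stood at 28.1, 89.8, 86.9 and 22.3 CPM and was 4.03-fold lower (3.11 to 5.27). Csf1, a ligand of the receptor that keeps microglia alive, was at a ratio of 0.596 (0.496 to 0.716).

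Other members of the list differed less. Cst7 (chromosome 2, 150570415 to 150578944, plus strand), a cystatin that inhibits cathepsins, stood at 59, 239, 258 and 188 CPM, a ratio of 0.787 (0.705 to 0.878). Cd9, a tetraspanin, and Serpine2, a secreted protease inhibitor, were at ratios of 1.24 (1.19 to 1.28) and 1.46 (1.37 to 1.55). Ctsl and Timp2 were at 1.30 (1.24 to 1.37) and 1.34 (1.27 to 1.41). Ccl6, Ank and Cadm1 were at 0.741 (0.671 to 0.818), 0.736 (0.554 to 0.976) and 0.906 (0.795 to 1.03). None of the 7 members of the TREM2-independent DAM list passed 1.5-fold in cluster 02, and their median was -0.08. Apoe (chromosome 7, 19696109 to 19699188, minus strand), the main lipid carrier of the brain, stood at 7019, 15832, 24172 and 12168 CPM in cluster 02, a ratio of 0.769 (0.758 to 0.779), and the protease Ctsb was at a ratio of 1.25 (1.21 to 1.28).

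Spp1 was also lower in the knockout outside cluster 02. In clusters 05 and 06 together, other clusters of the series with median depths of 4783 (wild type) and 4251 UMIs (knockout), Spp1 stood at 96.5 and 5.93 CPM, and in the 21 and 18 cells of cluster 03 at 75.4 and 17.3 CPM. After thinning to 8918 UMIs, 54.8% of wild-type cells of cluster 02 and 7.45% of knockout cells held a Spp1 UMI (unthinned 71.9% and 11.7%). The unthinned shares were 26.7% and 3.04% in clusters 05 and 06, and 47.6% and 5.56% in cluster 03. Cluster 03 cells had median depths of 7612 and 4415 UMIs. Of the wild-type Spp1 UMIs in the pool of clusters 01, 02, 04, 05, 06 and 08, 88.7% lay in cluster 04, and the part that free Spp1 RNA has in the cluster 02 difference was not tested. For Lpl the corresponding wild-type levels were 70.8 CPM in clusters 05 and 06 and 5.38 CPM in cluster 03, against 192 CPM in cluster 02. After thinning, 51.9% of wild-type and 10.1% of knockout cells held a Lpl UMI (unthinned 56.8% and 19.2%), and in clusters 05 and 06 14.2% and 0.87% did.

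Some members of the list of further disease-associated genes were lower in cluster 02 as well. Of 18 members with at least 50 UMIs, 10 were at least 1.5-fold lower and none was higher, and the median log2 ratio was -0.94. After thinning, 11 members had at least 50 UMIs and their median was 0.0553. Cybb, the catalytic subunit of the phagocyte NADPH oxidase, stood at 22, 46.9, 41.2 and 8.86 CPM and was 5.3-fold lower (3.55 to 8.11). Cd72, an inhibitory receptor of the lectin type, stood at 22, 37.4, 37.4 and 7.14 CPM and was 5.23-fold lower (3.35 to 8.46). Ch25h, which makes 25-hydroxycholesterol, was 8.79-fold lower (3.96 to 23) on 48 and 7 UMIs; after thinning its log2 ratio was -1.59 in place of -3.14, and that of Cybb was -3.40 in place of -2.40. Lgals3, the glycan-binding galectin-3, stood at 29.5, 139.9, 157 and 47.1 CPM and was 2.97-fold lower (2.47 to 3.59). Capg, an actin-capping protein, was 2.16-fold lower (1.83 to 2.55). Fabp5 (chromosome 3, 10012548 to 10016607, plus strand), an intracellular fatty acid carrier, was 1.72-fold lower (1.24 to 2.39) in cluster 02. Cybb was the 1 of 6 NADPH oxidase genes past 1.5-fold: Cyba was at a ratio of 0.953 (0.918 to 0.99) and Ncf1 at 1.01 (0.915 to 1.12). Outside these lists, Crip1, a small zinc-binding protein, was 3.44-fold lower (2.74 to 4.35).

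Genes of MHC class II, which presents peptides of engulfed material, formed the list with the lowest median in cluster 02: -1.37 over the 6 members with at least 50 UMIs. Cd74, the invariant chain that guides class II molecules through the cell, stood at 541, 987, 992 and 267 CPM and was 3.7-fold lower (3.44 to 4.0). H2-Eb1, a class II beta chain, stood at 84.4, 138, 131 and 40.3 CPM and was 3.43-fold lower (2.82 to 4.19). H2-Aa and H2-Ab1, the alpha and beta chains of the other class II molecule, were 2.89-fold lower (2.47 to 3.38) and 2.32-fold lower (2.04 to 2.66). The peptide exchange chains differed less: H2-DMa was at a ratio of 0.801 (0.734 to 0.874) and H2-DMb1 at 0.979 (0.876 to 1.1), with 208 CPM in the wild type and 203 CPM in the knockout. After thinning, 87.4% of wild-type and 54.3% of knockout cells of cluster 02 held a Cd74 UMI (unthinned 95.2% and 70.4%). Unthinned, the shares in clusters 05 and 06 were 46.7% and 29.6%, and in cluster 03 47.6% and 16.7%. Of the 8 clusters the highest Cd74 level was in cluster 07, at 11825 CPM in the wild type and 6673 CPM in the knockout, a ratio of 0.564 (0.547 to 0.582), and in clusters 05 and 06 the ratio was 0.598 (0.488 to 0.732). Within cluster 04 the Cd74 ratio was 1.09 (0.975 to 1.21) with 13 knockout cells.

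Class II genes share promoter boxes known as X and Y, so the 120 bases that end right before the start are shown for a pair of chains that were lower in cluster 02 and for H2-DMb1. Capitals mark matches to the Y-box letters CTGATTGG and to the X-box letters AG, any 2 bases, AC, any base and GATG, searched on both strands; no 2 matches overlap. The sequences are from RefSeq promoters on GRCm38.p6, 5′ to 3′ on the gene's strand.
H2-Aa, chr17:34287824-34287943, minus strand: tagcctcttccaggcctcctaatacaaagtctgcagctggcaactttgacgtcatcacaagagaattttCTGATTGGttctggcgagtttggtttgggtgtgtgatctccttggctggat
H2-Eb1, chr17:34305747-34305866, plus strand: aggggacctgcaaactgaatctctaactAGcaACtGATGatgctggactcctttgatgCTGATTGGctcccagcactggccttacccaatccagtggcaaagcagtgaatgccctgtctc
H2-DMb1, chr17:34153071-34153190, plus strand: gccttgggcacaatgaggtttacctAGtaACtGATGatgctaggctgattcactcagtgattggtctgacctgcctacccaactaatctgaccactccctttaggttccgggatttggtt
The Y-box letters begin 51 bases before the start in H2-Aa and 62 before it in H2-Eb1. X-box letters begin 92 bases before the start in H2-Eb1 and 95 before it in H2-DMb1, which has no exact Y-box match in this window. Over 32851 promoter windows of 250 bases, longer than the 120 bases shown, 3.83% held the Y-box letters and 0.816% the X-box letters. Within 120 bases, the windows of H2-DMa held neither, and 1 of the 2 windows of Spp1, which is no class II gene, held the Y-box letters 49 bases before the start. Cd74 and H2-Ab1 had no entry.

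Several chemokines were lower in cluster 02. Of 21 cytokines and chemokines with at least 50 UMIs, 12 were at least 1.5-fold lower and 2 were higher, with a median of -0.72. Ccl7, which attracts monocytes, stood at 184, 171, 91.9 and 20.00 CPM and was 8.54-fold lower (6.63 to 11.1); without the deepest 5% of cells its log2 ratio was -2.50 instead of -3.09. Cxcl2, a neutrophil attractant, stood at 23.3, 53.1, 39.6 and 8.0 CPM and was 6.64-fold lower (4.41 to 10.3). Ccl12 was at 470.1, 616, 330.2 and 291 CPM and 2.12-fold lower (1.96 to 2.3), and Cxcl16, a membrane-bound chemokine and scavenger receptor, was 2.29-fold lower (1.93 to 2.71). Il1b and Tnf, the main inflammatory cytokines on the list, were at ratios of 0.608 (0.541 to 0.683) and 0.648 (0.567 to 0.741). Ccl4 and Ccl3, the members with the most UMIs, were at ratios near 1: Ccl4 was at 4484 CPM in the wild type and 4452 CPM in the knockout, a ratio of 0.993 (0.97 to 1.02), and Ccl3 at 1.01 (0.974 to 1.05). Ccl8 was higher, at 74.8, 33.7, 57.6 and 79.99 CPM, but 41.8% of its knockout UMIs came from 1 cell, and the ratio was 1.56 once the cell with the most UMIs was left out of each library, in place of 2.37.

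Some markers of border-associated macrophages, which live in the meninges and around vessels, were lower in cluster 02. Their summed level in cluster 02 was 533, 490, 527 and 357 CPM, none of the 10 was at 0 in either library, and 3 of the 9 with at least 50 UMIs were at least 1.5-fold lower (Lyve1, Ms4a7 and F13a1). Pf4 and Mrc1, defining markers on that list, were at ratios of 0.714 (0.613 to 0.832) and 0.693 (0.506 to 0.947). Ccl7, Cxcl2 and H2-Eb1 were higher in cluster 07 than in cluster 02, at 792, 295 and 2153 CPM in the wild type, and their ratios there were 0.645 (0.573 to 0.726), 0.551 (0.449 to 0.676) and 0.611 (0.568 to 0.657). The part of such transcripts in the cluster 02 differences was not tested.

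Interferon-stimulated genes were partly lower in cluster 02: 8 of 24 with at least 50 UMIs passed 1.5-fold, none was higher, and the median was -0.39. Isg15, a ubiquitin-like protein induced by interferon, stood at 37.1, 84.3, 48.8 and 39.1 CPM and was 2.15-fold lower (1.74 to 2.68). Ifit2, an RNA-binding antiviral protein, was 2.37-fold lower (1.46 to 3.95), and Ifit3 of the same family was at a ratio of 1.05 (0.82 to 1.35). Among MHC class I genes, 3 of 12 passed (H2-Q4, H2-Q6 and H2-Q7, near-identical copies whose reads can be split between them). The classical H2-D1 and H2-K1 were at 0.861 (0.826 to 0.896) and 0.829 (0.772 to 0.891), and B2m, the shared light chain, at 0.947 (0.926 to 0.969). Cd52, a small surface glycoprotein of leukocytes, stood at 499, 884, 731 and 316 CPM and was 2.8-fold lower (2.6 to 3.01).

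Among the genes higher in the knockout inside cluster 02 were a cholesterol exporter, bridges to dying cells and a microglial receptor. Abcg1, which exports cholesterol to lipoprotein particles, stood at 61.8, 50.6, 59.9 and 92.6 CPM, a ratio of 1.83 (1.5 to 2.25), and was the 1 of 14 members of the cholesterol transport list to pass 1.5-fold upward; Ch25h was the 1 to pass downward. A pair of proteins that bridge phosphatidylserine and phagocytic receptors were higher: Gas6 stood at 145, 111, 146 and 191 CPM and was 1.71-fold higher (1.49 to 1.97), and Mfge8 was 1.75-fold higher (1.22 to 2.55) on 45 and 101 UMIs. Fcrls, an Fc receptor-like protein found on microglia, stood at 1207, 1089.5, 1215 and 1659.7 CPM and was 1.52-fold higher (1.46 to 1.59). Hist2h2aa1, a histone gene with near-identical copies, was 2.46-fold higher (1.92 to 3.18); its ratio was 2.05 in clusters 05 and 06 and 3.13 in cluster 07.

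The highest ratios among the named genes of cluster 02 belonged to neutrophil genes, with most of their UMIs in few cells. S100a8 stood at 0, 14.7, 618 and 484 CPM, and the neutrophil genes S100a9, Ngp and Camp were 23.7, 20.2 and 17.2 times the wild type. The heterozygote was higher than the knockout in each of these 4 genes. One knockout cell held 63.4% of the S100a8 UMIs, and 3 knockout cells, 3 heterozygous cells and 0 wild-type cells held 10 or more UMIs of the 8 neutrophil markers. Without the 1% of cells highest in neutrophil or choroid plexus UMIs, the log2 ratios of S100a8, S100a9, Ngp and Camp were 1.24, 1.13, 0.99 and 0.43 in place of 5.05, 4.57, 4.34 and 4.11. The summed neutrophil level in cluster 02 was 0.686, 44.7, 1781 and 1121 CPM.

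Of 12 lipid droplet and fatty acid genes in cluster 02, Lpl and Fabp5 were lower and none was higher, with a median of -0.34. Of 13 phagocytosis genes, Gas6 and Mfge8 were higher and Axl was lower, with a median of -0.11. Of 20 homeostatic microglia genes 1 was higher (Fcrls) and none lower, with a median of 0.13. None of the 25 lysosome genes passed (median 0.12): Ctsd, an aspartic protease, was at 1.13 (1.11 to 1.15). Complement (9 members, median -0.04), glycolysis (13, 0.03), iron handling (7, -0.25), cell cycle (7, -0.04) and cytosolic ribosomal proteins (81, 0.04) had no member past 1.5-fold. Neither had the 20 immediate early and dissociation response genes (median -0.07) or the 12 mitochondrially encoded transcripts (median -0.15). C1qa, which starts the classical complement cascade, was at 9324 CPM in the wild type and 9237 CPM in the knockout, a ratio of 0.991 (0.974 to 1.01). Of 9 cholesterol synthesis and uptake genes 1 was lower, Srebf2, the transcription factor that switches them on, at 0.541 (0.339 to 0.855).

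**Figure D2:**
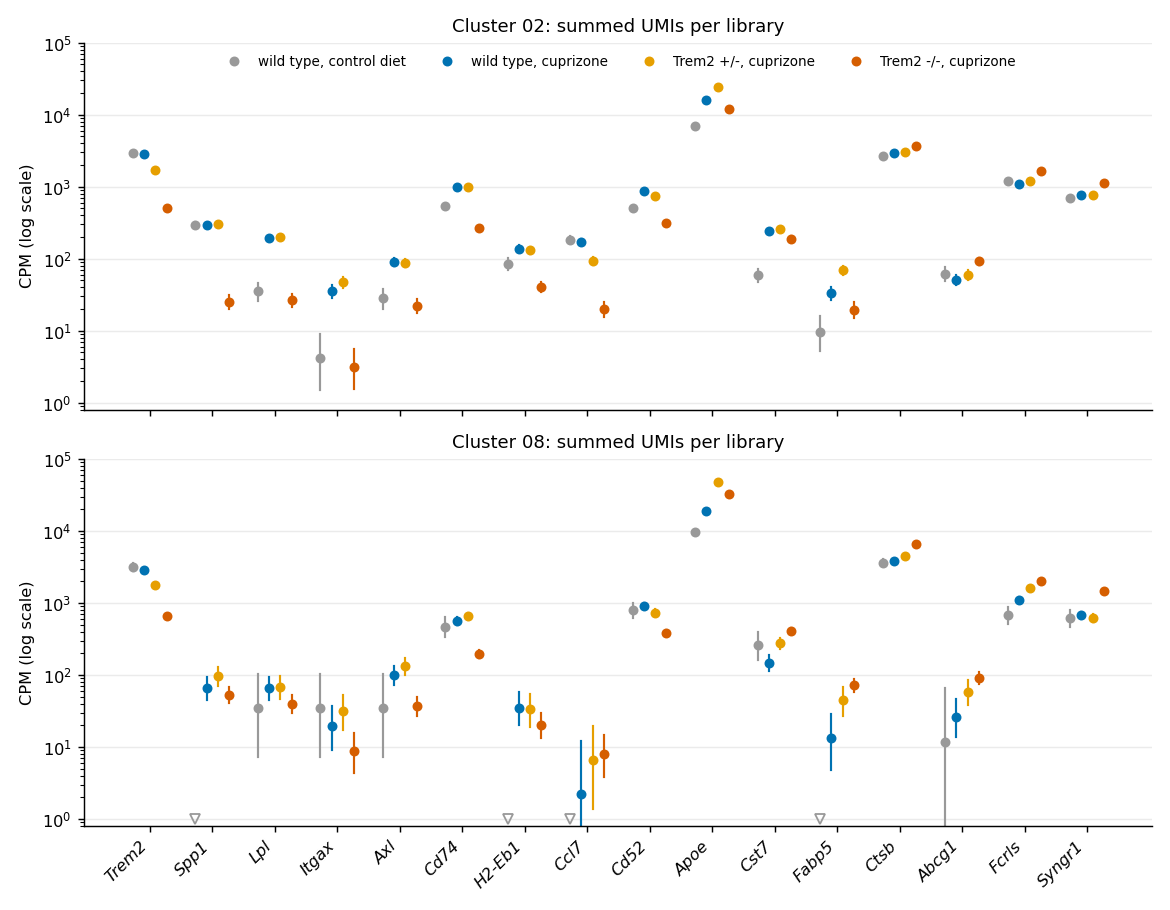
CPM (vertical axis, log scale) of 16 genes in cluster 02 (top) and cluster 08 (bottom), 1 point per library with its exact 95% Poisson interval; open triangles mark a library with no UMI. In cluster 02 the knockout was the lowest of the 4 libraries for Spp1, Lpl, Itgax, Axl, Cd74, H2-Eb1 and Ccl7; in cluster 08 its Apoe, Cst7, Fabp5, Ctsb and Abcg1 lay above the wild type on cuprizone.

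Inside cluster 08, several early and late DAM genes were higher in the knockout. Apoe stood at 9559, 18649.9, 47681 and 33059 CPM and was 1.77-fold higher (1.73 to 1.81) in the knockout, with the heterozygote higher still. Cst7 stood at 259, 147, 276 and 407 CPM and was 2.76-fold higher (2.14 to 3.62). Fabp5 stood at 0, 13.2, 44.5 and 72.5 CPM and was 5.5-fold higher (2.43 to 15.4) on 6 wild-type and 92 knockout UMIs. The control-diet library held 13 cells in cluster 08 and no Fabp5 UMI among 84947, where the floor of 3 UMIs equals 35.3 CPM. Control-diet levels in cluster 08 at or below 35.3 CPM, here and below, therefore rest on 3 UMIs or fewer. Ctsb, a lysosomal cysteine protease, stood at 3638, 3806, 4466 and 6627 CPM and was 1.74-fold higher (1.65 to 1.83). The knockout was above the wild type on cuprizone in all 4 of these genes, and above both wild-type libraries.

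By list, 2 of 7 TREM2-independent DAM genes were at least 1.5-fold higher in cluster 08 (Ctsb and Apoe) and none lower, with a median of 0.24 against -0.014 for all genes; 3.08% of all genes passed upward and 4.32% downward. Of 12 TREM2-dependent DAM genes, 3 were higher (Cst7, Serpine2 and Timp2) and 2 lower (Lpl and Axl), with a median of 0.15. Serpine2 was 1.65-fold higher (1.47 to 1.86) and Timp2, an inhibitor of matrix proteases, 1.79-fold higher (1.61 to 1.98). Lpl was at 35.3, 65.9, 69 and 39.4 CPM, a ratio of 0.598 (0.373 to 0.974), and Axl at 35.3, 98.8, 131 and 37 CPM, 2.67-fold lower (1.73 to 4.1); without the deepest 5% of cells the log2 ratio of Axl was -2.05 in place of -1.42. Spp1 was low in cluster 08 in each library, at 0, 65.9, 95.7 and 52.8 CPM, a ratio of 0.801 (0.514 to 1.28); 53.7% of its knockout UMIs came from 1 cell, and the ratio was 0.445 without the top cell of each library. Of 10 further disease-associated genes 5 were higher (Igf1, Lgals3, Fabp5, Apoc1 and Pld3) and 1 lower (Capg), with a median of 0.62. Igf1, a growth factor, stood at 11.8, 24.2, 37.8 and 50.4 CPM, and Lgals3 at 23.5, 50.5, 100.2 and 97.7 CPM, ratios of 2.09 (1.09 to 4.39) and 1.93 (1.23 to 3.16).

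Cst7 UMIs were found in a larger share of the knockout cells of cluster 08. After thinning to 3859 UMIs, 33.3% of wild-type and 65% of knockout cells of cluster 08 held a Cst7 UMI (unthinned 39.5% and 74.9%). Unthinned, the Cst7 shares in clusters 05 and 06 were 28.9% and 25.2%, lower in the knockout, and in cluster 03 9.52% and 22.2%. For Fabp5 the thinned shares were 4.35% and 18.5% (unthinned 6.58% and 25.1%), with 6.22% and 2.61% in clusters 05 and 06. In the 21 and 18 cells of cluster 03 the Fabp5 shares were 14.3% and 55.6%, above those of cluster 08. The part of free RNA in the Cst7 and Fabp5 shares was not tested.

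Of 12 cholesterol transport genes 5 were higher in cluster 08 and none lower, against 3.08% and 4.32% of all genes. Their median was 0.57, and that of the heterozygote against the wild type was 0.47. Abcg1 stood at 11.8, 26.4, 57.9 and 91.4 CPM and was 3.47-fold higher (1.91 to 6.91). Abca1, the exporter that loads cholesterol on to apolipoproteins, was 1.72-fold higher (1.09 to 2.82), and Nr1h2, a nuclear receptor that senses oxysterols (LXR beta), was 2.15-fold higher (1.09 to 4.72). Apoc1, an apolipoprotein encoded beside Apoe, was 3.29-fold higher (1.42 to 9.35) on 6 and 55 UMIs, and 5.32 times the wild type without the top cells. Of 4 lipid droplet and fatty acid genes with enough UMIs, Fabp5 and the droplet coat protein Plin2 were higher (the latter at a ratio of 2.05), and Lpl was lower, with a median of 0.74. Only 1 gene of cholesterol synthesis had 50 UMIs in cluster 08, Msmo1, at a ratio of 0.865 (0.481 to 1.62).

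Among the other genes higher in cluster 08, Syngr1, a synaptogyrin of vesicle membranes, stood at 612, 677, 619 and 1480.1 CPM and was 2.19-fold higher (1.94 to 2.48). Hif1a, the oxygen-sensing transcription factor, stood at 47.1, 39.5, 49 and 107 CPM and was 2.71-fold higher (1.65 to 4.71). Bnip3, a mitochondrial protein of mitophagy, was 2.75-fold higher (1.5 to 5.52), and the glycolytic enzyme Pgk1 was 1.72-fold higher (1.04 to 2.98), the 1 of 11 glycolysis genes to pass 1.5-fold. Cox6a2, a subunit of cytochrome oxidase, was 3.64-fold higher (2.06 to 7.02) and 5.49 times the wild type without the top cells; 1 wild-type cell held 38.5% of its 13 UMIs. H2afj, a histone variant, was 2.56-fold higher (1.65 to 4.15); Gng12, a G protein subunit, 2.12-fold higher (1.34 to 3.5); Dtnbp1, 2.11-fold higher (1.36 to 3.4); and the RNA-binding protein Hnrnpa1, 2.0-fold higher (1.34 to 3.09). Fcrls was 1.81-fold higher (1.64 to 1.99). Ccl5, a chemokine for T cells, stood at 118, 8.79, 24.5 and 153 CPM; 1 knockout cell held 62.4% of its 194 UMIs, and the ratio was 8.69 without the top cells in place of 17.4. Mbp, a myelin protein, was 2.49-fold higher (1.41 to 4.72) while the summed oligodendrocyte level in cluster 08 was 177, 127, 131 and 191 CPM, with 1 of 7 of those markers at 0 in the wild type and 2 of 7 in the knockout; the part of free myelin RNA was not tested.

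Antigen presentation, surface and cytokine genes were among those lower in the knockout inside cluster 08. Cd74 stood at 471, 567, 655 and 194 CPM and was 2.92-fold lower (2.44 to 3.49). Of 5 MHC class II members 2 passed 1.5-fold, Cd74 and H2-Ab1, with a median of -0.49; H2-Aa was at 0.94 (0.559 to 1.64). Cd52 stood at 789, 912, 735 and 389 CPM and was 2.35-fold lower (2.05 to 2.68). Il1b stood at 753, 413, 332 and 186 CPM and was 2.22-fold lower (1.82 to 2.7), and of 17 cytokines and chemokines it was 1 of 3 that were lower, with Tnf and Cxcl16, against 2 that were higher, Ccl5 and Igf1. Bcl2a1a, an inhibitor of apoptosis with near-identical copies, was 3.21-fold lower (2.31 to 4.47). Cd34, a sialomucin, stood at 259, 253, 203 and 92.2 CPM and was 2.74-fold lower (2.1 to 3.57). Tmem176a and Tmem176b, a pair of neighbouring membrane proteins of antigen-presenting cells, were 2.75-fold lower (2.21 to 3.43) and 2.16-fold lower (1.83 to 2.55). Tmsb10, an actin-binding thymosin, was 2.31-fold lower (1.91 to 2.78); Adamts1, a secreted protease, 2.69-fold lower (1.85 to 3.93); and Arl5c, 2.21-fold lower (1.53 to 3.17).

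In the other lists of cluster 08, single members were lower. Slc11a1, an iron and manganese transporter of phagosomes, was at 0.513 (0.393 to 0.671), and Trf, transferrin, at 0.551 (0.501 to 0.607), 2 of 6 iron handling genes. C5ar1, the receptor for complement C5a, was at 0.534 (0.397 to 0.72), 1 of the 2 of 8 complement genes that were lower. Ctsh, a lysosomal aminopeptidase, was at 0.59 (0.533 to 0.654) while Ctsb was higher, and those 2 were the lysosome genes of 24 that passed 1.5-fold. Ctsd, Cd63 and Cd68, a protease and a pair of lysosomal membrane proteins, were at 1.41 (1.36 to 1.45), 1.43 (1.31 to 1.56) and 1.34 (1.22 to 1.48). Of 18 interferon genes 3 were lower, Ifi27l2a and Ifi204 among them, and none higher, with a median of -0.22; Ifi204 had a log2 ratio of -0.33 after thinning in place of -1.04. In the phagocytosis list of 9, Gas6 was higher and Axl and Stab1 were lower. No member passed among 10 MHC class I genes (median -0.09), 5 NADPH oxidase genes (0.05), 5 cell cycle genes (-0.22), 81 ribosomal protein genes (0.06) and 11 mitochondrially encoded transcripts (-0.35). Of 20 homeostatic genes 1 was higher, Fcrls, and the median was -0.03. Hspa1a, a heat shock protein, and Nfkbiz were the 2 lower of 19 immediate early and dissociation response genes.

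**Figure D3:**
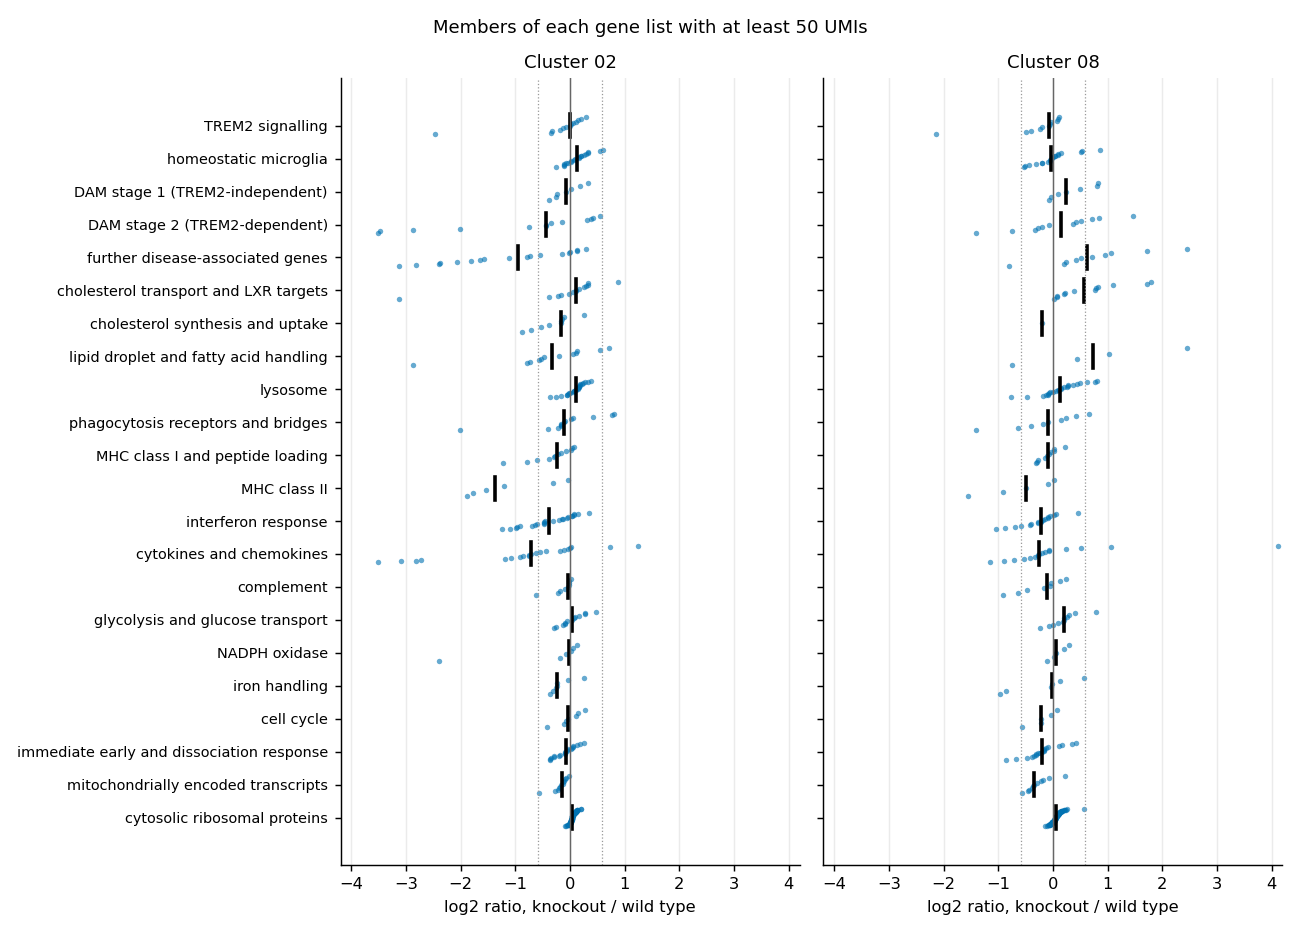
Log2 ratio of knockout to wild type (horizontal axis) for each member with at least 50 UMIs of 22 gene lists (rows), in cluster 02 (left) and cluster 08 (right); black bars are medians and dotted lines mark 1.5-fold. MHC class II (-1.37), further disease-associated genes (-0.94) and cytokines (-0.72) had the lowest medians in cluster 02, and lipid droplet genes (0.74, 4 members), further disease-associated genes (0.62) and cholesterol transport (0.57) had the highest medians in cluster 08.

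Cd74, Cd52 and Axl were lower in both clusters, while Fabp5, Apoe and Cst7 were below 1 in cluster 02 and above it in cluster 08. Fabp5 was past 1.5-fold in opposite directions, 0.583 (0.419 to 0.807) in cluster 02 and 5.5 (2.43 to 15.4) in cluster 08. Apoe was at 0.769 (0.758 to 0.779) and 1.77 (1.73 to 1.81), and Cst7 at 0.787 (0.705 to 0.878) and 2.76 (2.14 to 3.62). With 1 library per group the difference between the clusters was not tested. Cd74 was lower in both, 0.27 (0.25 to 0.291) and 0.342 (0.286 to 0.409), as were Cd52, 0.358 (0.333 to 0.384) and 0.426 (0.373 to 0.487), and Axl, 0.248 (0.19 to 0.322) and 0.375 (0.244 to 0.577). Abcg1 and Fcrls were higher in both.

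Ttr, the transthyretin of the choroid plexus epithelium, was also lower in both clusters, at 0.497 (0.431 to 0.571) and 0.483 (0.373 to 0.626). It stood at 176, 189, 136 and 93.7 CPM in cluster 02. Its ratio was 0.527 (0.419 to 0.658) in clusters 05 and 06 and 0.444 (0.348 to 0.567) in cluster 07, and its wild-type level was 189 CPM in cluster 02, 235 in cluster 08, 193 in clusters 05 and 06, and 233 in cluster 07. In cluster 03 it was 112996 CPM in the wild type and 42991 CPM in the knockout. The summed level of the 4 choroid plexus markers in the table was 184, 194, 140 and 95.1 CPM in cluster 02 and 212, 239, 142 and 117 CPM in cluster 08; of the 4, none was at 0 in the wild type and 1 in the knockout in cluster 02, and 2 and 1 in cluster 08. The part of free RNA from such cells in the Ttr difference was not tested.

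How far the change in the shares of all 6 clusters would alter a pooled comparison was computed for the named genes. The pool held clusters 01, 02, 04, 05, 06 and 08, and cluster 04 supplied 22.8% of its UMIs in the wild type and 2.19% in the knockout. Cluster 02 supplied 44.2% and 53.7%, and cluster 08 supplied 7.37% and 19.5%. The ratio from cluster shares alone was obtained by giving each cluster its wild-type CPM and weighting it by the knockout's share of UMIs.

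For Cst7, Apoe and Fabp5 the shares alone gave a ratio close to the observed pooled one. Cst7 was at 0.634 in the pool and 0.60 from shares alone, Apoe at 0.75 and 0.711, and Fabp5 at 0.418 and 0.364. In the pool without cluster 04 their ratios were 1.15 (1.06 to 1.26), 1.16 (1.14 to 1.17) and 1.14 (0.897 to 1.45). Inside cluster 02 the ratio of each was below 1, inside cluster 08 it was above 1, and in the pool it was below 1. A pooled ratio close to that from shares alone therefore does not mean that the ratios inside the clusters were near 1.

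For Trem2, Spp1, Lpl, Itgax, Axl, Cd74, Cd52 and Ccl7, all lower inside cluster 02, shares alone gave a ratio nearer to 1 than the observed one. Spp1 was at 0.029 in the pool and 0.223 from shares alone, Lpl at 0.0988 and 0.472, and Itgax at 0.0951 and 0.618. Axl was at 0.22 and 0.73, Cd74 at 0.243 and 0.691, and Cd52 at 0.331 and 0.801. Ccl7 was at 0.156 in the pool, while shares alone gave 0.949, and 73.9% of its wild-type UMIs lay in cluster 02. Trem2 was at 0.177 and 0.976. Within the 13 knockout cells of cluster 04, Spp1 was at a ratio of 0.125 (0.101 to 0.153), Cst7 at 0.226 (0.148 to 0.331) and Apoe at 0.972 (0.947 to 0.997).

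**Figure D4:**
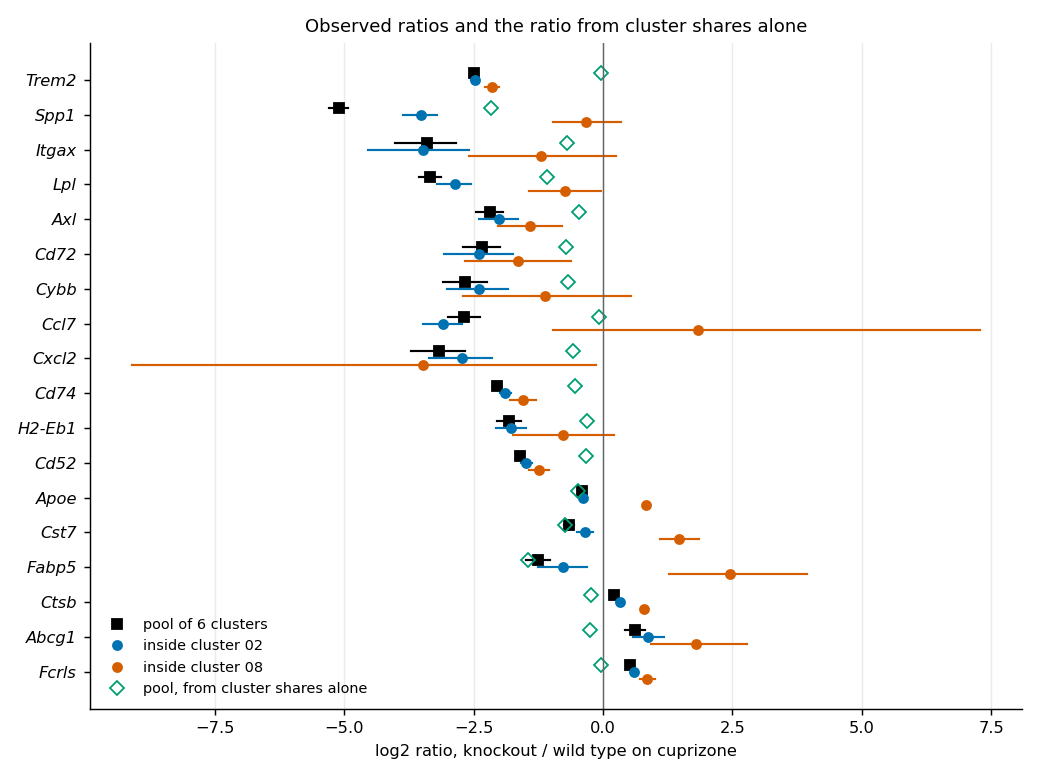
Log2 ratio of knockout to wild type (horizontal axis) for 18 genes in the pool of 6 clusters (black squares), inside cluster 02 (blue) and inside cluster 08 (orange), with exact 95% intervals, and the pooled ratio that cluster shares alone would give (open green diamonds). Diamonds lie at or just left of the squares for Apoe, Cst7 and Fabp5, and to the right of the squares for Trem2, Spp1, Lpl, Axl, Cd74 and Ccl7.

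The heterozygote had few called genes against the wild type, a comparison that shares the wild-type library with the one above. In cluster 02, 23 of 7440 genes were at least 2-fold higher (0.309%) and 11 at least 2-fold lower (0.148%), and in cluster 08 these were 8 (0.362%) and 13 (0.588%) of 2211. In cluster 02 its ratio to the wild type was 1.05 for Spp1, 1.03 for Lpl, 0.968 for Axl and 1.0 for Cd74. Trem2 was at 0.60 in cluster 02 and 0.609 in cluster 08. Ccl7 and Ccl12 were lower in the heterozygote, at 0.538 and 0.536. In cluster 08 the heterozygote was higher than the wild type in Apoe (2.56), Cst7 (1.88) and Abcg1 (2.2), while Syngr1 was at 0.915.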

How the data were processed

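The authors deposited UMI counts per gene and cell for 4 libraries, made with Cell Ranger 2.1.1 on mm10 per the submitters' processing notes, together with a cell table that names each cell's library and cluster. The table holds 12800 genes and 3023 cells, and the sources used here do not give the settings of the authors' clustering and filters. From these counts, UMIs were summed over the cells of each cluster and library and scaled to CPM. Levels have exact Poisson 95% intervals and ratios exact conditional binomial (Clopper-Pearson) 95% intervals; UMIs count molecules, and the intervals leave out variation between animals. Where a library had 0 UMIs a floor of 3 was used. Named genes were Trem2, up to 12 higher and 12 lower called genes per cluster with at least 100 UMIs ranked by how far the interval bound nearest 1 lay from it, and of each of 22 lists the 2 members with most UMIs and those with the largest and smallest ratio. Some genes named for 1 cluster are also given in the other. Other list members were named after their values were seen, and uncharacterised gene models were counted but not named. The clusters, gene lists and 15 marker lists were chosen with earlier results of these data known. No doublet caller was run; leaving out the deepest 5% of cells stands in its place. Thinned shares kept 135 of 146 and 188 of 213 cells in cluster 02, and 69 of 76 and 157 of 175 in cluster 08. Ratios were tested on simulated counts drawn with Poisson error only, the error that the intervals assume. That test does not cover UMIs concentrated in single cells. Alternatives were TMM scaling (edgeR 4.0.16, R 4.3.3), per-cell means, other filters and thresholds, thinning and leaving out cells. Python 3.11.15, numpy 2.4.6, scipy 1.17.1 and pandas 2.3.3 were used. Gene coordinates are those of GENCODE on GRCm38. Some genes that meet the naming rule are not reported here.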

Additional observations from a re-analysis of the deposited data

Results flagged for a closer look

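Fabp5 was past 1.5-fold in opposite directions in the 2 clusters: its log2 ratio of knockout to wild type was -0.78 in cluster 02 and 2.46 in cluster 08. The difference between the clusters was not tested, since each group is 1 library, and the cluster 08 value rests on 6 wild-type UMIs.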

How the results depend on the processing

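The limit on every value is 1 library per group, so that animal, library and genotype cannot be told apart. Counts of called genes depended on the filter, the threshold and depth. In cluster 02 (33 higher and 69 lower genes), a minimum of 200 UMIs left 6 and 21, no filter gave 98 and 213, the 1.5-fold threshold 151 and 247, and thinning left 44 lower. In cluster 08 (55 and 31), the minimum of 200 UMIs left 2 and 9, no filter gave 119 and 192, the 1.5-fold threshold 112 and 157, thinning left 33 higher, and TMM scaling left 20 lower, all of them among the 31. Of the 69 lower genes in cluster 02, 27 were called again after thinning, with 5598 in place of 7766 genes tested, and of the 55 higher genes in cluster 08 it was 12, with 2087 in place of 3634 tested. Over the alternatives, the log2 ratios of named genes stayed within the 95% interval of the main value in 503 cases in cluster 02 and left it in 43, and in cluster 08 in 526 and 25. Among the named genes that left that interval, the neutrophil genes, Ccl7, Ccl8 and Ifi204 moved by over 1.5-fold. So did Ch25h (-1.59 in place of -3.14) and Cybb (-3.40 in place of -2.40) in cluster 02 after thinning. Axl in cluster 08 did so without the deepest 5% of cells (-2.05 in place of -1.42). Without the top cells, the cluster 08 ratios of Ccl5, Cox6a2, Apoc1 and Spp1, given above, also moved by over 1.5-fold. C1qb in cluster 08 changed sign under TMM scaling (0.0049), from a ratio of 0.958. The median of the further disease-associated genes in cluster 02 changed sign after thinning (0.0553), when 11 in place of 18 members had 50 UMIs. No paired analysis was possible because each group is 1 library.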

Other observations

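Gadd45a, a growth arrest and DNA damage response gene that is on none of the lists and was chosen after its values were seen, was higher in the knockout in both clusters. It stood at 2.75, 5.13, 4.57 and 24.0 CPM in cluster 02, a ratio of 4.68 (2.64 to 8.92). In cluster 08 the ratio was 7.18 (2.34 to 35.8), over 63 UMIs in both libraries together. Hist2h2aa1, named for cluster 02, was at a ratio of 2.63 in cluster 08.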
